A study of Mus musculus with 36 samples.

Results

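Heart apex from control mice was compared between midnight (12 am) and noon (12 pm), which lie 12 h apart. The comparison took 6 of the 36 libraries of a study of Klf15, which encodes a transcription factor of the Kruppel-like family, and the daily rhythm of heart RNA, namely control replicates 2, 3 and 4 at each of the 2 times. The control animals were male C57BL/6J mice of 11 to 12 weeks that carried the alpha-MHC cre transgene, in which a heart muscle promoter drives the recombinase. They lived under 12 h of light and 12 h of darkness a day. The clock hour at which the lights came on is not given in the labels used here. The other 12 control libraries (4 am, 8 am, 4 pm and 8 pm, 3 each) serve here only for contrast. So do the 18 libraries of hearts labelled cK15, the Klf15 knockouts of the study. Which cells of those hearts lost Klf15 was not tested. Klf15 itself was at 2.80, 0.777 and 1.45 FPKM in the midnight libraries, and its difference from noon did not pass the test (log2 difference 0.18, SE 0.29; limma adjusted p = 0.938).

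Nearly every cell keeps a molecular clock. The transcription factors ARNTL (also called BMAL1) and CLOCK bind E-box sequences and switch on the Per and Cry genes, whose proteins return to the nucleus and block their own activators. A second loop, of the REV-ERB receptors (Nr1d1, Nr1d2), which repress, and the ROR receptors, which activate, times Arntl itself, and factors such as DBP and TEF pass the rhythm on to metabolic genes. In the heart this clock is known to time fuel use and electrical properties, and a mouse is active in the dark.

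RNA was measured as FPKM, in which fragment numbers are divided by the length of the gene and by the size of the library. The number of reads behind a value is unknown, and 10451 to 10805 genes per library reached 1 FPKM. Replicate 2 stood apart at both times: its 10 most abundant genes held 16.7% of all FPKM at midnight and 16.1% at noon, against 21.9% to 23.8% in the other 4 libraries. Myl2, the ventricular myosin light chain, was at 32970 and 31357 FPKM in those libraries and at 47622 to 61918 in the others. Each time held 1 such library. Heart muscle markers summed to 69260 to 120693 FPKM over the 6 libraries, and none of the 12 was listed at 0. Ttn, the gene of titin and not among the 12, was listed at 0 in all 6 libraries. The reason was not tested. Whether the libraries came from separate animals is not said in the labels. The p-values therefore reflect only how far libraries scatter, pooled over the 18 control libraries of all times, and that scatter may be partly technical.

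Few genes passed the test between midnight and noon. Of 10668 genes tested, 65 (0.609%) had a limma adjusted p under 0.05 on the log2(FPKM + 1) scale, 41 (0.384%) higher at midnight and 24 (0.225%) higher at noon. Those higher at midnight included the clock repressors Cry1 and Per2, the kinase Wee1, detoxifying enzymes (Gsta3, Fmo2), the glucocorticoid-responsive genes Fkbp5 and Zbtb16, and Nampt, the rate-limiting enzyme of NAD salvage. Those higher at noon included Nr1d1, Dbp and 6 genes of the extracellular matrix, led by Fbn1 (fibrillin) and Col3a1 (a fibrillar collagen). A difference of at least 2-fold on that scale was seen for 9 of the 41 and 10 of the 24.

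In all 65 called genes the 3 libraries of the higher time lay above the 3 of the other, so each of the 3 same-numbered pairs had the direction of the call by necessity. The same libraries made the calls, so this gap adds no further support. Over all genes tested, every midnight library lay above every noon library in 906 genes (8.49%), and every noon library above every midnight library in 604 (5.66%). Midnight and noon libraries with the same replicate number deviated together. With that number as a block 122 genes passed (1.14%), 73 higher at midnight (0.684%) and 49 at noon (0.459%), all 65 among them. The block covers the control libraries of all times, while the pairing is shown for midnight and noon only. Fitted without the block on the 6 midnight and noon libraries alone, 7 passed in each direction. The counts with the block on those 6 libraries are given in the last section. In a further fit, the library with the lowest share of FPKM in its 10 most abundant genes was left out of each control group. This rule marks 1 library per group, and how far it stood apart at the other times is not shown here. The marked library was replicate 2 at midnight and noon but had another number at 8 pm. Pairing by number may therefore fail at 8 pm, which limits the calls that passed only with the block. Without the marked libraries 38 and 17 passed, 38 of them among the 65. Rescaling moved the balance of the calls, from 63.1% higher at midnight to 56.1% with median-ratio rescaling and 52.0% with quantile normalization. The gene just inside the threshold was Fyco1 (adjusted p = 0.0470) and the one just outside Slc25a1 (0.0511).

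**Figure D1:**
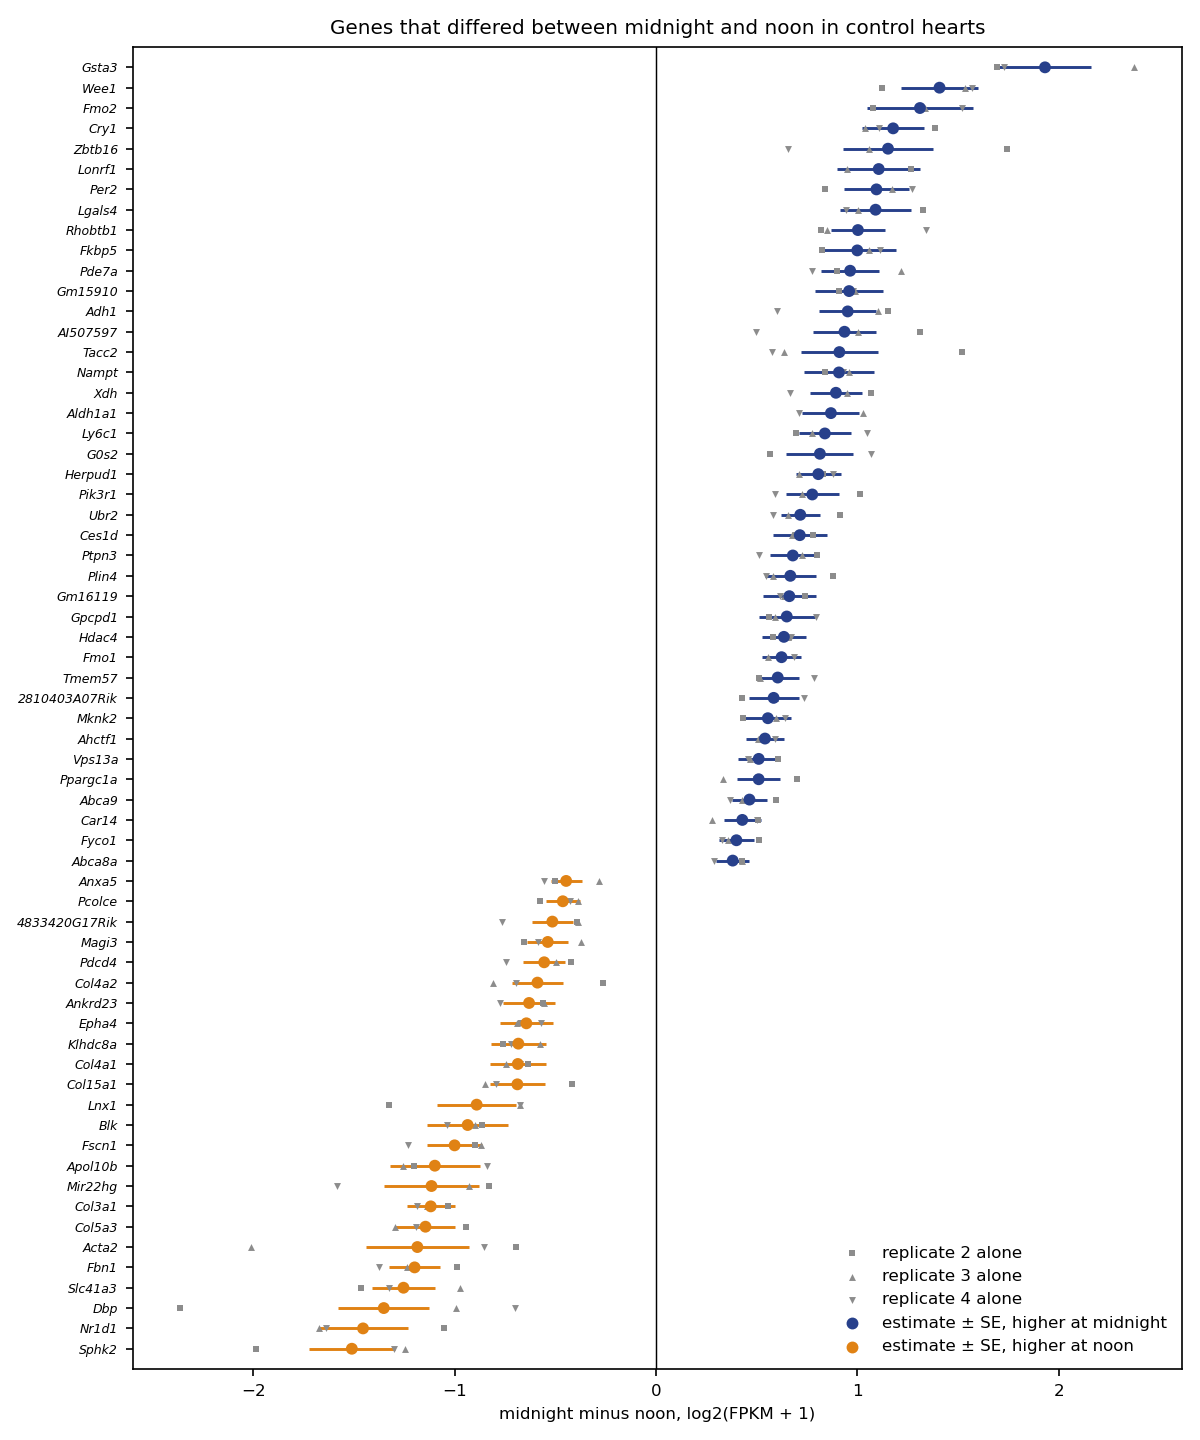
Difference between midnight and noon, in log2(FPKM + 1), for called genes, with the estimate ± SE as a large point and the 3 same-numbered pairs as small symbols. All small symbols lie on the side of 0 of their gene's estimate, which follows from the gap between the groups. Zbtb16, Acta2 and Dbp show wide spread between pairs.

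Among the clock genes, midnight was set apart by high Cry1 and Per2 and noon by high Nr1d1 and Dbp. Of the activator, repressor and output lists, Hlf, Nfil3 and Rorb did not pass the filter on low values. Cry1, a repressor of CLOCK and ARNTL, was at 9.76, 7.93 and 9.21 FPKM at midnight and at 3.12, 3.35 and 3.73 at noon. The lowest midnight library was more than 2-fold above the highest noon library, and the log2 difference was 1.18 (SE 0.15; limma adjusted p = 0.00144). Per2, the other called repressor, was at 4.64, 3.75 and 5.61 FPKM at midnight and at 2.15, 1.11 and 1.73 at noon, again with no overlap (log2 difference 1.09, SE 0.16; limma adjusted p = 0.00283).

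Nr1d1, which encodes the repressor REV-ERB alpha, was at 4.32, 1.57 and 2.76 FPKM at midnight and at 7.18 to 10.7 at noon. All noon libraries lay above all midnight libraries, with a log2 difference of -1.45 (SE 0.22; limma adjusted p = 0.00322). Nr1d1 overlaps Thra on the other strand, and whether reads were counted by strand is not stated in the labels used here. Dbp, an activator of metabolic output genes, was at 3.36, 5.83 and 8.18 FPKM at midnight and at 21.4, 12.6 and 13.9 at noon (log2 difference -1.35, SE 0.23; limma adjusted p = 0.00755). The replicate 2 pair was the farthest apart, and without the libraries that stood apart the Dbp difference was -0.85 (limma adjusted p = 0.0422). Sphk2, a kinase that makes sphingosine 1-phosphate, lies end to end with Dbp on the other strand and overlaps it, so that reads of the 2 genes may not be separable. It was at 8.04, 8.58 and 10.2 FPKM at midnight and at 34.8, 21.7 and 26.5 at noon, the strongest fall of the 24 genes (log2 difference -1.51, SE 0.21; limma adjusted p = 0.00184).

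The promoters of the called clock genes at the extremes are shown because the E-box is the element through which the clock's activators work. No window was at hand for Per2, so its promoter is not shown. They are RefSeq windows of GRCm38.p6, 250 bases before to 50 after the start, 5′ to 3′ on the strand of the gene, with capitals on matches to the E-box CACGTG or to its variant CACGTT, which reads AACGTG on the other strand. The Cry1 window is chr10:85185005-85185304 (minus strand), that of Nr1d1 chr11:98775328-98775627 (minus) and that of Dbp chr7:45704997-45705296 (plus).
Cry1: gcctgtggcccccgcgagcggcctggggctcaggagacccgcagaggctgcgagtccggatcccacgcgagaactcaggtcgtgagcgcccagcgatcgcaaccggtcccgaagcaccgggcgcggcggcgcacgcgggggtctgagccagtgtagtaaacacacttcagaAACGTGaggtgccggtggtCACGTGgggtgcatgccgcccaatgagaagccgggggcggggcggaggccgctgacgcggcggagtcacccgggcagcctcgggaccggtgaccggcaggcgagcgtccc
Nr1d1: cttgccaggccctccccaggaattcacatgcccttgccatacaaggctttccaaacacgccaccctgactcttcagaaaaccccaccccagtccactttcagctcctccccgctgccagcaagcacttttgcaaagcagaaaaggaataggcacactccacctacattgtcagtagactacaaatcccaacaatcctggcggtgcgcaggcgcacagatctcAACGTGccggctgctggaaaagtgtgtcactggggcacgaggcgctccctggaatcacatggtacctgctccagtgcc
Dbp: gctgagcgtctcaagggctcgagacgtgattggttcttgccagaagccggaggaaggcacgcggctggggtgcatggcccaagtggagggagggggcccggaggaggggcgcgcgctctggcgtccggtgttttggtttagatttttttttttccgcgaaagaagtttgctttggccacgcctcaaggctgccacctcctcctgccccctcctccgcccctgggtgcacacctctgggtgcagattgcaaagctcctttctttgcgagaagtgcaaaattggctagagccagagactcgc
The Cry1 window held an E-box at -60 and the variant at -79 from the start, the Nr1d1 window held the variant at -28, and the Dbp window held neither. Searched on both strands, the E-box was in 7.15% of all 32851 windows and the variant in 4.68%. Of the genes higher at midnight, 28 had a window and 6 of these held the E-box (Abca8a, Adh1, Cry1, Fkbp5, Gm15910 and Rhobtb1), against 8.09% of all genes with a window. Of the 23 genes higher at noon with a window, 2 held it (Lnx1 and Slc41a3). The D-box TTANGTAA, through which DBP acts, was in no window of either group and in 2.32% of all windows. Also searched was the core of the REV-ERB and ROR element, held by 4 of the 28 and 3 of the 23, against 12.4% of all genes. The cyclic AMP response element was held by 0 and 2 (2.03% of all genes). The glucocorticoid response element was held by 1 and 0 (0.537% of all genes). These matches describe the letters of the windows, and binding was not measured.

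Other clock genes did not pass, the central activator among them. Arntl was at 9.83, 9.95 and 6.98 FPKM at midnight and at 8.85, 11.7 and 12.2 at noon, with overlapping groups (log2 difference -0.27, SE 0.17; limma adjusted p = 0.715). Its mean was 27.3 ± 1.53 FPKM at 8 am and 1.21 ± 0.519 at 8 pm (SD, n = 3 each), with midnight and noon between them. Per3, a Period gene, was at 6.96 ± 1.03 FPKM at midnight and 5.14 ± 0.853 at noon (SD, n = 3 each), and at 11.1 ± 0.228 at 8 pm and 1.27 ± 0.270 at 8 am, with a limma adjusted p of 0.497 between midnight and noon. Tef, a relative of Dbp, had 7.66 to 10.4 FPKM at midnight and 4.47 to 7.17 at noon, without overlap, and an adjusted p of 0.366. The groups did not overlap for Rora either (16.8 to 20.7 against 10.7 to 15.0 FPKM; limma adjusted p = 0.404). Bhlhe40, Nr1d2, Cry2, Clock, Npas2, Arntl2, Bhlhe41, Per1 and Gm129 (also called Ciart) had adjusted p-values from 0.228 to 0.971 and overlapping groups. The sign for Per1, Gm129, Arntl2, Bhlhe41 and Clock turned when a single library or the set-apart libraries were left out, so no direction is given for them. None of 10 genes of clock protein turnover (kinases and ubiquitin ligases of the clock proteins) was called.

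**Figure D2:**
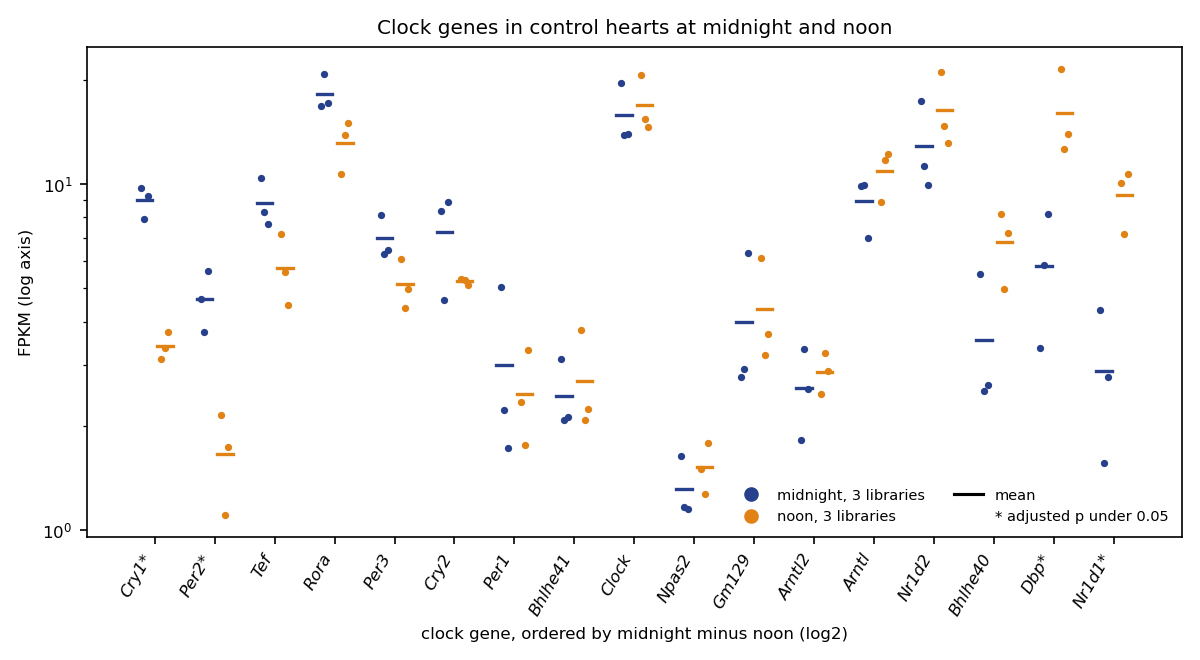
FPKM on a log axis of clock genes tested, in the 3 midnight and 3 noon control libraries (points) with the mean (line), ordered by the difference. Cry1 and Per2 lie higher at midnight and Dbp and Nr1d1 higher at noon without overlap, and Arntl overlaps.

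Outside the clock, the strongest rise at midnight was in an enzyme of detoxification. Gsta3, a glutathione S-transferase, was at 24.1, 35.7 and 27.6 FPKM at midnight and at 6.77, 6.08 and 7.62 at noon. The groups were far apart, with a log2 difference of 1.93 (SE 0.23; limma adjusted p = 0.00064). Ces1d, a carboxylesterase, was the other of 34 genes of redox balance and detoxification to be called, at 318 to 327 FPKM against 190 to 202 (log2 difference 0.71, limma adjusted p = 0.0172). Its call was lost on leaving out any 1 of the 6 libraries, with adjusted p from 0.0552 to 0.0796. The median of that list was 0.068, close to the 0.031 of all genes. Fmo2, a flavin monooxygenase outside the list, averaged 12.8 ± 2.46 FPKM at midnight and 4.70 ± 1.81 at noon (SD, n = 3 each; log2 difference 1.31), and its call was lost without noon replicate 3 or 4 or midnight replicate 2 or 3 (adjusted p from 0.0898 to 0.181). Fmo1, a gene of the same family chosen after its values were seen, averaged 25.8 ± 0.687 and 16.4 ± 0.345 FPKM. Adh1 (alcohol dehydrogenase) was at 28.3, 25.9 and 17.5 FPKM at midnight and at 12.2, 11.5 and 11.2 at noon (log2 difference 0.95, limma adjusted p = 0.00283). Aldh1a1 and Xdh, enzymes that oxidise retinaldehyde and purines, were also higher at midnight and were chosen after their values were seen, with log2 differences of 0.87 and 0.89.

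Wee1, the kinase that holds cells before mitosis and a known clock output in mouse liver, was at 11.0, 8.73 and 10.4 FPKM at midnight and at 4.49, 2.36 and 2.86 at noon. All midnight libraries lay above all noon libraries (log2 difference 1.41, SE 0.19; limma adjusted p = 0.00148). It was the 1 called gene of 21 cell cycle genes, of which 18 had a difference below 0 and the median was -0.20. The cyclin gene Ccnd1, the replication helicase gene Mcm5 and the topoisomerase gene Top2a were not called.

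Of 18 genes that respond to glucocorticoids, the adrenal hormones that rise before the active phase, Fkbp5 and Zbtb16 were called and the median was 0.062. Fkbp5, a chaperone that tempers the glucocorticoid receptor, was at 5.29, 6.61 and 6.84 FPKM at midnight and at 2.55, 2.65 and 2.63 at noon (log2 difference 1.00, SE 0.19; limma adjusted p = 0.0198). On leaving out any 1 library other than midnight replicate 2 its adjusted p was 0.0641 to 0.0932. Zbtb16, a zinc-finger repressor, was at 10.4, 6.08 and 4.30 FPKM at midnight and at 2.41, 2.40 and 2.36 at noon. Its midnight libraries spread widely above a tight noon group, and replicate 2 was the highest (log2 difference 1.15, SE 0.22; limma adjusted p = 0.0198). Without midnight replicate 2 the difference was 0.85 (adjusted p = 0.0862), and on leaving out any 1 library other than midnight replicate 4 the adjusted p was 0.0552 to 0.0934. Tsc22d3, another classical target, had 11.7 to 14.6 against 6.63 to 10.2 FPKM and an adjusted p of 0.302, and Per1 overlapped. Glul, glutamine synthetase, passed with the replicate block (adjusted p = 0.0419) and had 161 to 215 against 103 to 144 FPKM.

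Among metabolic genes single members were higher at midnight. Nampt was at 156, 127 and 108 FPKM at midnight and at 56.4 to 87 at noon, the 1 call among 18 genes of NAD synthesis and the sirtuins (log2 difference 0.91, SE 0.17; limma adjusted p = 0.0180). Its call was lost without noon replicate 3 or 4 or midnight replicate 2 or 3, with adjusted p from 0.0623 to 0.136. Pik3r1, the regulatory subunit of the insulin-activated PI3 kinase, was at 28.1 to 43.3 against 18.3 to 21.0 FPKM and was the 1 call of 22 genes of insulin and FOXO signalling (log2 difference 0.78, limma adjusted p = 0.00854, and 0.0777 without noon replicate 4). Herpud1, a protein of endoplasmic reticulum-associated degradation, was at 248, 207 and 219 against 139, 126 and 118 FPKM, and the other 22 genes of folding and stress in that compartment were not called (log2 difference 0.81, limma adjusted p = 0.00181).

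Of 51 genes of fatty acid use, 42 had a difference above 0, the median was 0.22 and 2 were called, against 6090 of 10668 genes above 0 and the median of 0.031 over all genes. Plin4, a coat protein of lipid droplets, had 20.4 to 26.1 FPKM at midnight and 13.7 to 13.9 at noon (log2 difference 0.67, SE 0.13; limma adjusted p = 0.0198). Ppargc1a, the coactivator that drives mitochondrial and fatty acid genes, had 19.4 to 25.2 against 15.1 to 15.3 FPKM, with a log2 difference of 0.51 (SE 0.11; limma adjusted p = 0.0373). Both calls were lost when midnight replicate 2 was left out, at adjusted p-values of 0.119 and 0.186. The same held without each noon library (0.0609 to 0.0934 for Plin4 and 0.113 to 0.147 for Ppargc1a), and for Ppargc1a without midnight replicate 4 (0.0947). Dgat2, which makes the triglyceride of the droplets, was at 298, 211 and 245 against 173, 134 and 139 FPKM. Its groups did not overlap, and it passed with the replicate block (adjusted p = 0.00551) but not without (0.153). Pdk4, which spares glucose by blocking pyruvate dehydrogenase, overlapped between the times (59.4 to 86.5 against 28.6 to 60.9 FPKM).

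None of 24 genes of branched-chain amino acid breakdown, a pathway of heart and muscle in which Klf15 is known to act, was called, with 22 above 0 and a median of 0.23. With the block, Ivd (isovaleryl-CoA dehydrogenase) passed, at 307 to 338 against 225 to 281 FPKM (adjusted p = 0.0250). Genes of oxidative phosphorylation (0 of 29 called, median 0.13), glucose use (0 of 40, median 0.033), sterol and fatty acid synthesis (0 of 27, median -0.11), autophagy (0 of 28) and ribosomal proteins (0 of 77) gave no calls. The same held for ion channels and calcium handling (0 of 31), the adrenergic and cyclic AMP pathway (0 of 23), cardiac transcription factors (0 of 20), ribosome biogenesis (0 of 27), vessel tone (0 of 18) and the immediate early genes (0 of 8). With the block 3 genes of these lists passed. Cacna2d1, a calcium channel subunit, had 73.3 to 115 FPKM at midnight and 62.1 to 70.2 at noon (adjusted p = 0.0395), and Gnai2, an inhibitory G protein subunit, 48.0 to 50.9 against 61.4 to 66.6 FPKM (0.0414). Flt1, a VEGF receptor of the vessel tone list, averaged 26.7 ± 4.72 against 17.6 ± 1.01 FPKM (SD, n = 3 each; limma adjusted p = 0.0395). Of 25 cytosolic heat shock genes none was called, and Dnaja1, a co-chaperone of HSP70, came closest with 17.6 to 21.3 against 9.73 to 12.6 FPKM (adjusted p = 0.0543, and 0.0180 with the block). The cold-inducible Cirbp had 30.8 to 39.3 FPKM at midnight and 45.7 to 55.9 at noon and passed with the block alone (adjusted p = 0.0428).

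The group with the most calls was the extracellular matrix, and all of them were higher at noon. Of 30 matrix and fibrosis genes tested, 6 were called higher at noon (against 0.225% of all genes), none at midnight, 26 had a difference below 0 and the median was -0.43. Fbn1, whose product builds microfibrils, was at 21.8, 19.9 and 20.1 FPKM at midnight and at 44.1, 48.2 and 53.6 at noon. The groups were tight and about 2-fold apart (log2 difference -1.20, SE 0.12; limma adjusted p = 0.000232). Col3a1 was at 91.4, 86.1 and 89.8 FPKM at midnight and at 188, 191 and 206 at noon (log2 difference -1.12, SE 0.12; limma adjusted p = 0.000232). Col5a3, a minor fibrillar collagen, was at 4.69, 4.10 and 3.75 against 9.95, 11.5 and 9.87 FPKM, again with no overlap (log2 difference -1.14, SE 0.15; limma adjusted p = 0.00144).

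Collagens of basement membranes were the rest of the called matrix genes. Col15a1 had 14.4 to 21.3 FPKM at midnight and 25.8 to 28.8 at noon (log2 difference -0.69, limma adjusted p = 0.0265), and its adjusted p was 0.0930 to 0.120 on leaving out any 1 library other than midnight replicate 2. Col4a1 and Col4a2, neighbouring genes that form a heterotrimer and were chosen after their values were seen, had log2 differences of -0.69 and -0.59. The major collagen genes Col1a1 and Col1a2 did not follow, with overlapping groups (5.86 to 9.41 against 7.71 to 12.4 FPKM, and 31.0 to 52.1 against 37.3 to 48.4 FPKM). With the block, Postn (periostin) and Col6a1 passed as well, at log2 differences of -0.65 and -0.58. The members on the other side of 0 included Tgfbr2, Fn1 and Timp3, none of them called. Pcolce, the enhancer of procollagen cleavage, and Anxa5 lay outside the list, were chosen after their values were seen and were higher at noon by smaller amounts (log2 differences -0.46 and -0.45).

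Markers of fibroblasts, the main source of fibrillar collagens, did not fall together with the matrix genes. Of 8 fibroblast markers tested, 4 had a difference above 0 and 4 below, Col3a1 was called and the median was -0.054. At an unadjusted limma p under 0.05, 2 were lower at midnight and 0 higher. The 6 markers that are not collagens summed to 1873 to 2176 FPKM at midnight and 1691 to 1897 at noon. Dcn (decorin) and Pdgfra were among the members with a higher mean at midnight, while the 4 below 0 included Col3a1. Dcn averaged 586 ± 58.8 FPKM at midnight and 514 ± 32.7 at noon (SD, n = 3 each), and Pdgfra 13.7 ± 0.342 and 12.0 ± 1.34. In RNA of whole tissue, fewer cells of a type and less RNA per cell cannot be told apart.

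Acta2, smooth muscle actin, was at 73.0, 37.2 and 81.9 FPKM at midnight and at 119, 153 and 149 at noon, without overlap but with wide spread at midnight (log2 difference -1.18, SE 0.25; limma adjusted p = 0.0416). Leaving out midnight replicate 3 made this -0.84 (adjusted p = 0.158), and its call was lost on leaving out any other library except midnight replicate 4. Of the other 7 smooth muscle and pericyte markers none was called: Tagln had 10.1 to 13.3 against 12.8 to 17.3 FPKM, and the list summed to 822 to 1007 FPKM at midnight and 1008 to 1043 at noon. Endothelial (0 of 10 called) and macrophage markers (0 of 10) overlapped in their sums, and the endothelial marker Flt1 passed with the block alone. Blood markers summed to 123 to 138 FPKM at midnight and 159 to 255 at noon, and lymphocyte markers to 6.70 to 11.6 and 11.0 to 12.2 FPKM. No granulocyte, adipocyte, nerve, mesothelial or skeletal muscle marker was called. The part of these cells in the results was not tested.

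Stretch-responsive genes of the heart muscle showed wide differences that missed the threshold. Nppa, atrial natriuretic peptide, was at 52.2, 32.8 and 74.9 FPKM at midnight and at 179, 158 and 195 at noon (log2 difference -1.79, SE 0.45; limma adjusted p = 0.104). Ankrd1, a sarcomeric ankyrin repeat protein, averaged 689 ± 164 FPKM at midnight and 1674 ± 430 at noon (SD, n = 3 each), with adjusted p = 0.0841, and 0.0250 with the block. Tcap, the titin cap protein, averaged 128 ± 21.4 and 233 ± 46.7 FPKM, with 0.0917, and 0.0165 with the block. Groups of all 3 genes were apart. Ankrd23, a relative of Ankrd1 outside the list and chosen after its values were seen, was called, at 157, 189 and 182 against 233, 279 and 312 FPKM (log2 difference -0.63, limma adjusted p = 0.0342). The atrial markers, Nppa among them, summed to 47.2 to 94.8 FPKM at midnight and 176 to 223 at noon, while the atrial light chain Myl7 was at 2.94 to 5.18 and 5.31 to 9.49 FPKM. Of the 27 sarcomere and fetal genes tested none was called and the median was 0.065. Ttn, at 0 in all midnight and noon libraries, was not among the 27.

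**Figure D3:**
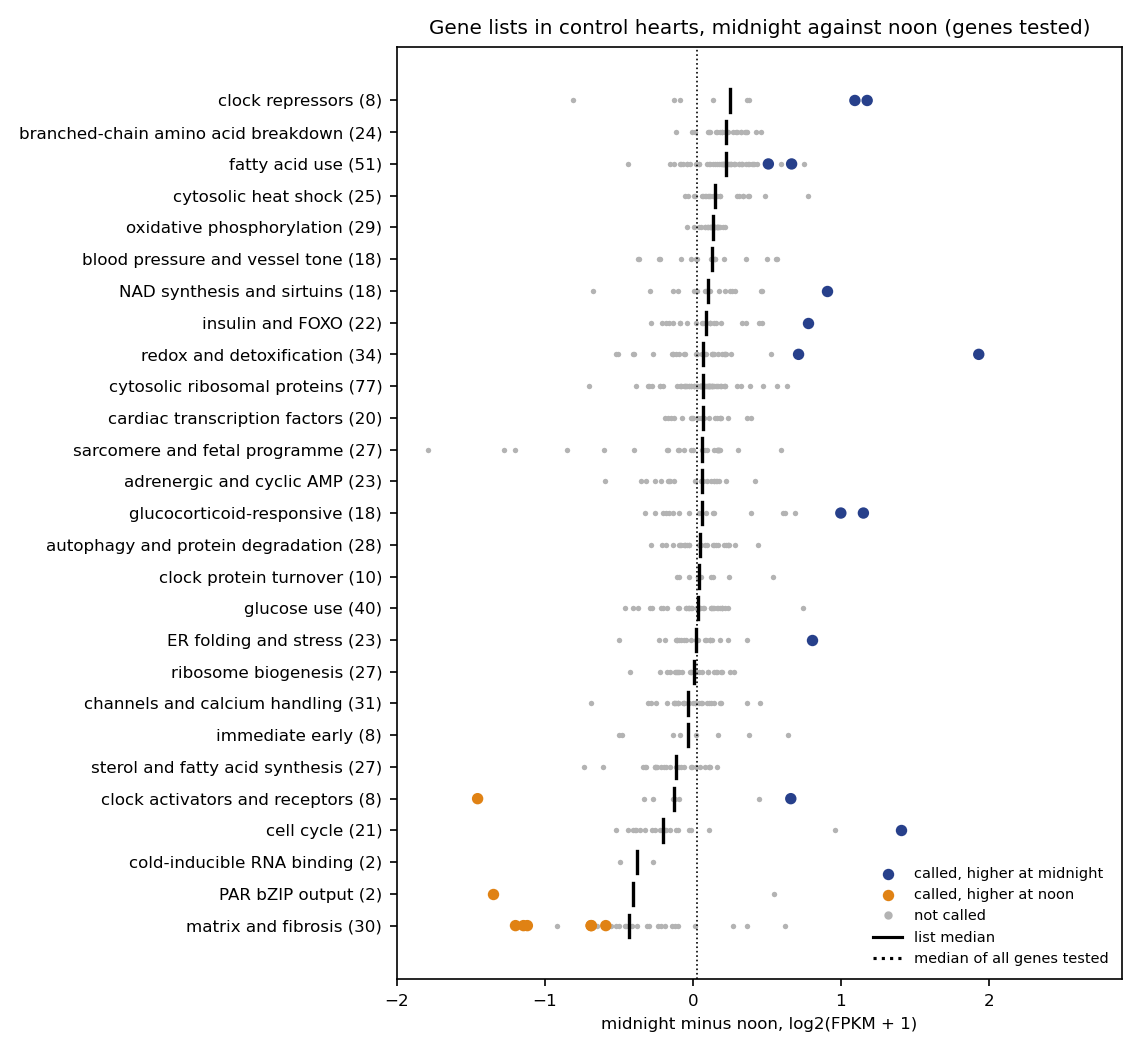
Midnight minus noon, in log2(FPKM + 1), for every tested member (points) of the 27 gene lists, with the number tested in brackets, the list median as a bar and the median of all genes as a dotted line. The matrix list holds 6 members called higher at noon and has the lowest median, -0.43.

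The remaining genes of largest difference had mixed roles. Higher at midnight were Lgals4, a galectin, at 71.2, 53.6 and 48.4 against 27.8, 26.3 and 24.7 FPKM (log2 difference 1.09), Lonrf1, a RING finger protein (1.11), Rhobtb1, at 20.5 ± 2.79 against 9.79 ± 1.90 FPKM (SD, n = 3 each), and Pde7a, a phosphodiesterase that hydrolyses cyclic AMP (0.96). The antisense gene Gm15910 (0.96) overlaps Msrb3 on the other strand. The call of Lonrf1 was lost without midnight replicate 2 or 4 or noon replicate 3 or 4 (adjusted p from 0.0503 to 0.107), and that of Gm15910 without midnight replicate 2 or noon replicate 3 or 4 (0.0689 to 0.0777). Higher at noon were Slc41a3, of a family of magnesium transporters, at 15.9, 18.9 and 15.2 against 45.6, 38.0 and 39.7 FPKM (-1.25), Fscn1, which bundles actin, at 2.22 ± 0.208 against 5.46 ± 0.811 FPKM (SD, n = 3 each), and genes of low level whose calls were lost in 8 or 9 of 17 alternative settings (Mir22hg, the host gene of a microRNA, Apol10b and Blk). The calls of Slc41a3, Lgals4, Gsta3, Wee1, Cry1, Fbn1, Col3a1, Col5a3, Sphk2 and Herpud1 held in all 18 settings.

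Most called genes peaked close to midnight or to the evening. Over the 6 control times, the mean of 20 of the 41 was highest at midnight, of 19 at 8 pm and of 2 at 4 am, and it was lowest at noon in 29. Of the 24 genes higher at noon, 11 were highest at noon, 9 at 8 am and 4 at 4 pm, and 14 were lowest at midnight. Over all genes tested, 23.8% were highest at midnight, 15.0% at 8 pm and 12.9% at noon. A further 13.5% were highest at 4 am, 19.2% at 8 am and 15.7% at 4 pm. Of all genes tested, 17.4% were lowest at noon and 14.0% at midnight. Since midnight and noon chose these genes, only the neighbouring times add to the choice. Wee1, for example, averaged 12.5 ± 1.03 FPKM at 8 pm, and Cry1 9.36 ± 0.665 at 4 am (SD, n = 3 each).

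**Figure D4:**
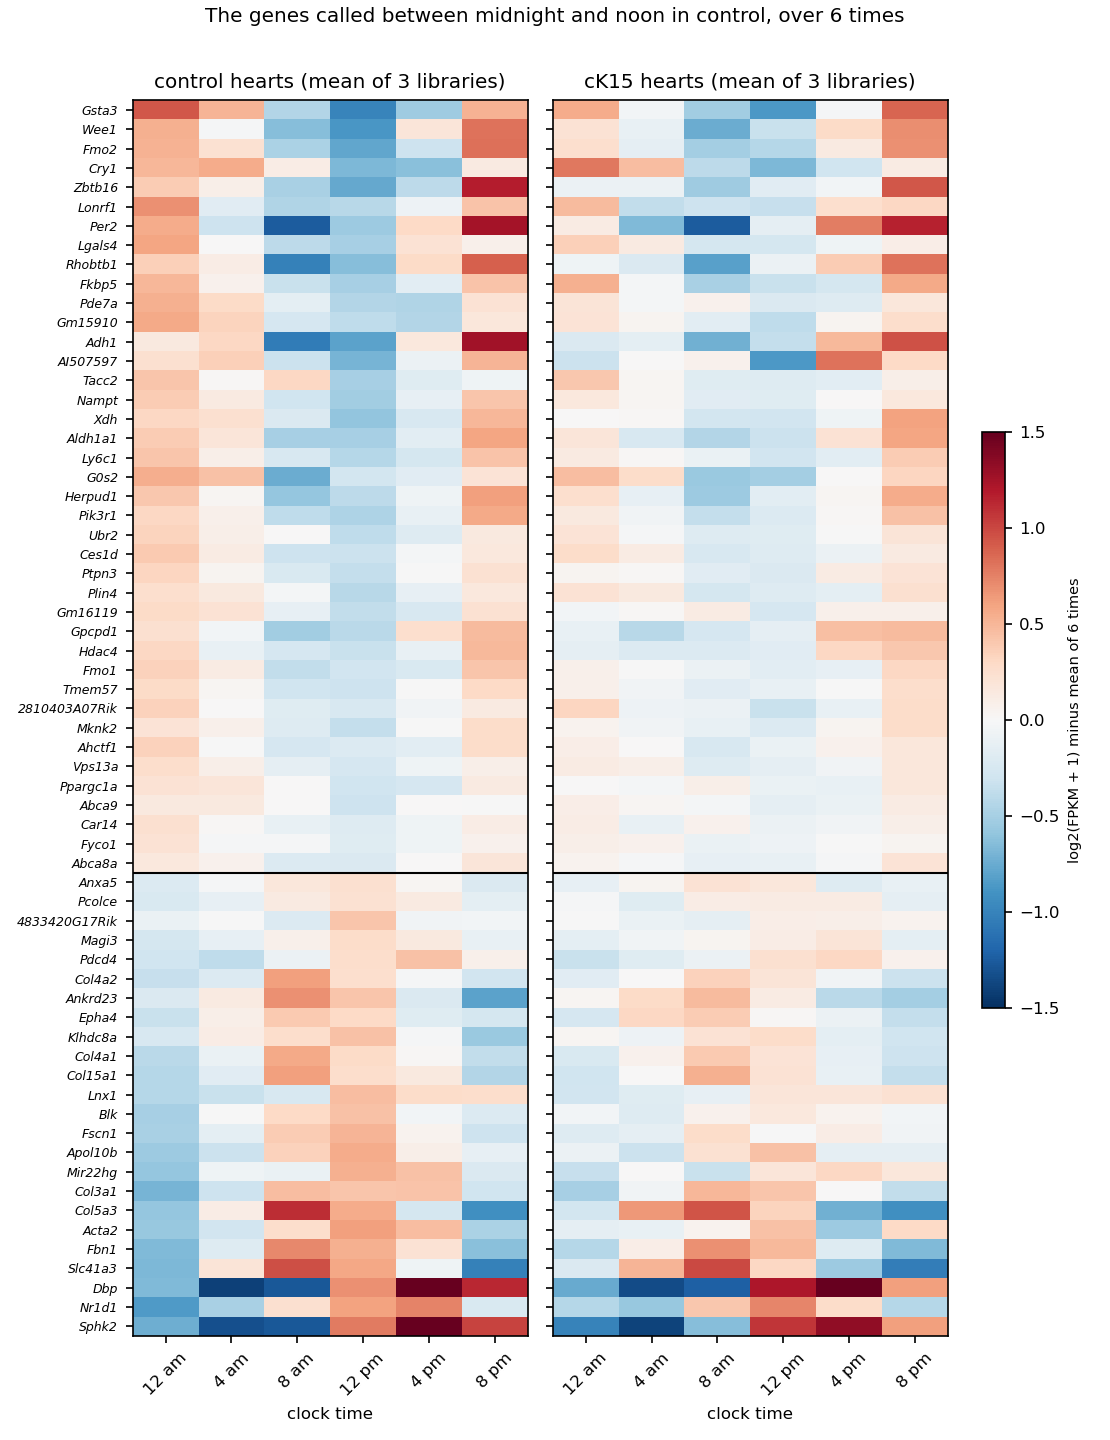
Mean log2(FPKM + 1) of called genes at the 6 clock times, minus the gene's mean over the times, in control (left) and cK15 hearts (right), 3 libraries per time. In control, genes above the black line are mostly red from 8 pm to 4 am, and most genes below it are red from 8 am to 4 pm.

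The contrasts between the other times 12 h apart, which share no library with midnight and noon, called 18 genes between 4 am and 4 pm (0.169%) and 180 between 8 am and 8 pm (1.69%). Of the 41 genes higher at midnight, 34 had a difference above 0 for 4 am minus 4 pm and 3 were called there (0.0562% of all genes). Of the 24 lower at midnight, 17 were below 0 and 5 were called (0.112% of all genes), among them Dbp (-2.92), Sphk2 (-2.83), Nr1d1 (-1.23) and Col3a1 (-0.74). For 8 am minus 8 pm, 38 of the 41 were below 0 and 23 were called so (0.825% of all genes), and 19 of the 24 were above 0 with 12 called (0.862% of all genes). Dbp and Sphk2 were exceptions, lower at 8 am than at 8 pm as well (-2.40 and -2.29). How many of all genes lay on each side of 0 in these contrasts was not counted, so nothing is read from the counts of signs.

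The difference between contrasts was tested next. The midnight-noon difference was unlike that of 4 am against 4 pm in 8 of all genes (0.0750%, with 0.0375% in each direction), and these held 3 of the 41 and 2 of the 24. It was unlike that of 8 am against 8 pm in 233 genes (2.18%, with 1.13% above 0 and 1.05% below; 354 with the block), which held 37 of the 41 and 18 of the 24. The midnight-noon difference that chose the 41 and the 24 is part of the value tested here, so these overlaps are partly fixed by the choice and nothing is read from them. Arntl led both, at log2 differences of -2.90 and -3.98 between contrasts. Per2 was 1.71 and 3.58 apart.

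The cK15 hearts were measured at the same times. All 41 genes were above 0 there too and all 23 of the 24 that could be tested were below 0 (Mir22hg was under the filter), against 51.9% of all genes above 0. The median difference of the 41 was 0.81 in control and 0.36 in cK15, and that of the 24 was -0.89 and -0.47. Control libraries chose these genes, so the sizes are not compared. In cK15 hearts 13 genes were called (0.124%, with 0.0380% higher at midnight and 0.0856% lower), of which 4 of the 41 (Gsta3, Cry1 and 2810403A07Rik among them) and 5 of the 24 (Sphk2, Dbp, Nr1d1, Col3a1 and Fbn1). Cry1 averaged 12.3 ± 0.716 FPKM at midnight and 3.83 ± 0.575 at noon in cK15 (SD, n = 3 each; log2 difference 1.47, SE 0.20; limma adjusted p = 0.00348).

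No gene had a limma adjusted p under 0.05 for the difference between genotypes in the midnight-noon contrast. Of 10599 genes tested, 235 had an unadjusted limma p under 0.05, a smaller share than that threshold lets through when no gene differs. The smallest adjusted p was 0.350. Rhobtb1 was at 20.5 ± 2.79 and 9.79 ± 1.90 FPKM in control and at 17.4 ± 1.67 and 17.2 ± 2.06 in cK15 (SD, n = 3 each), at midnight and noon in turn. Arntl, with overlapping groups in control, was at 13.8 ± 1.18 FPKM at midnight and 4.67 ± 1.80 at noon in cK15 (log2 difference 1.43, SE 0.29; limma adjusted p = 0.0757). That these differences between genotypes did not pass does not show that the genotypes act alike.

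**Figure D5:**
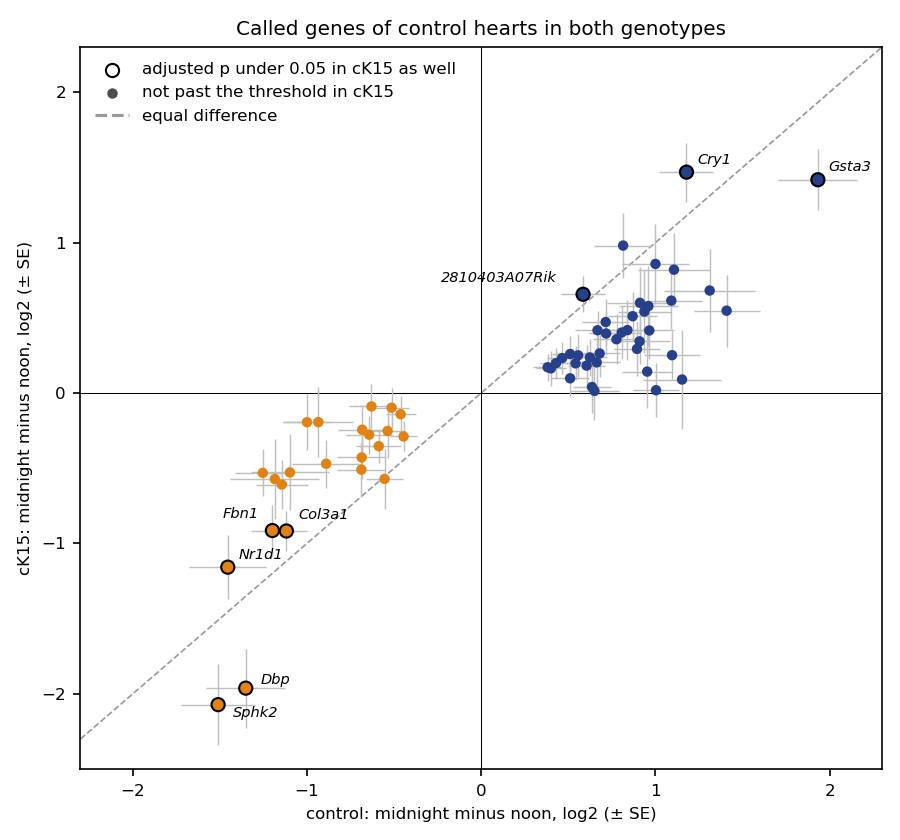
Midnight minus noon, in log2(FPKM + 1) ± SE, in control (horizontal) and cK15 hearts (vertical) for called genes tested in both, with black rings where the adjusted p was under 0.05 in cK15 as well. All points lie in the quadrants of equal sign, and Gsta3, Cry1, Dbp and Sphk2 are among the ringed genes.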

How the data were processed

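RNA of the heart apex was depleted of ribosomal RNA and sequenced as stranded 100 bp pairs, per the labels' protocols. The authors deposited FPKM per gene symbol and library in a table for each genotype. GSNAP, HTSeq and the build mm10 are named, per the submitters' processing notes. Their roles and versions, the annotation and how FPKM was computed are not given in the labels used here. No whole-read step could be recovered from the low values, so that depth is unknown and no counting interval is given. Of 23352 entries, 27 symbols had become dates and 2 occurred more than once; they are not named.

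The tests were run with limma 3.58.1 (R 4.3.3) after taking log2(FPKM + 1), with trend and robust moderation, 6 time means over the 18 control libraries and a mean FPKM of at least 1 over them. A fold change on this scale understates that of low genes. All genes tested entered the Benjamini-Hochberg adjustment, and the threshold was 0.05. A permutation test of 3 libraries against 3 cannot go below p = 0.1. Differences between contrasts were contrasts of the same fit, and genotypes were compared over 36 libraries. The fit was tested on simulated libraries drawn independently of each other. They held neither the pairing by number nor set-apart libraries, so that test does not cover these features.

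Deviations of same-numbered midnight and noon libraries from their group means correlated across genes at 0.49, 0.30 and 0.25, and those of other pairs at -0.33 to 0.10. The numbers were therefore taken as pairs, and the block is printed where it matters. These correlations do not cover the other control times, which the block includes. Named genes were the 12 highest and 12 lowest called, up to 4 called per list, clock genes, and up to 5 per test of a difference; exceptions are stated. The comparison and the lists were chosen with earlier results of these data known. Alternatives were pseudocount 0.1, no filter or a mean of 5, other scaling, other sets of libraries, the block, and leaving out each library. Gene positions and overlaps are from GENCODE (GRCm38), promoters from RefSeq. Results for some genes are not reported here.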

Additional observations from a re-analysis of the deposited data

Results flagged for a closer look

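These genes had the smallest adjusted p in the test of a difference between midnight minus noon and another contrast 12 h apart, and the difference itself is given, in log2(FPKM + 1) by limma. Against 4 am minus 4 pm it was -2.90 for Arntl (SE 0.24, adjusted p = 1.02e-05), -1.52 for Col5a3 (0.21, 0.00566), 1.71 for Per2 (0.23, 0.00566), 1.59 for Per3 (0.24, 0.00925) and -1.51 for Slc41a3 (0.22, 0.00925). Against 8 am minus 8 pm it was 3.26 for Adh1 (SE 0.20, adjusted p = 6.72e-08), -3.98 for Arntl (0.24, 6.72e-08), -3.17 for Col5a3 (0.21, 8.14e-08), 3.58 for Per2 (0.23, 6.90e-08) and 2.92 for Rhobtb1 (0.19, 6.90e-08). Their levels behind these values were highest at 8 am for Arntl, Col5a3 and Slc41a3 and at 8 pm for Per2, Per3, Adh1 and Rhobtb1.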

How the results depend on the processing

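Of 33 named called genes, each fitted in 17 or 18 settings, 10 held in all of them, 23 lost the threshold in at least 1, and none changed sign. The 41 higher and 24 lower calls became 7 and 7 in a fit of the 6 libraries alone, and 176 and 92 with a term for the libraries that stood apart. The replicate block, for pairing by number, gave 73 and 49; chosen after seeing the data, the block gave 152 and 86 on midnight and noon only and 296 and 153 without 8 pm. It changed the calls named beside it in the report, and Bhlhe40, Nr1d2, Rora and Tef passed in some such fits. Leaving out each of the 6 libraries gave 18 to 32 higher and 8 to 14 lower calls: 21 and 12 without midnight replicate 2, 20 and 10 without noon replicate 3, 18 and 8 without noon replicate 4, and, for the lower calls, 14 and 13 without midnight replicates 3 and 4 and 12 without noon replicate 2. The 8 genes unlike 4 am minus 4 pm became 14 with median-ratio rescaling, 5 in the groups alone, 13 over all 36 libraries, 33 with the set term, 18 without the libraries that stood apart and 5 to 10 on leaving out 1 library (5 without 4 pm replicate 3, 4 am replicate 4 or noon replicate 4). The 233 unlike 8 am minus 8 pm became 354 with the block, 606 with the set term and 144 to 211 on leaving out 1 library (153 without 8 pm replicate 2, 146 and 144 without noon replicates 3 and 4). The 0 genes unlike between genotypes became 1 without a filter, 3 with the set term and 0 to 0 on leaving out 1 library. Uncalled clock genes changed sign: Gm129 to 0.27 without the set-apart libraries, 0.039 and 0.012 without midnight replicates 2 and 3 and 0.099 without noon replicate 2; Per1 to -0.22 without the set-apart libraries, -0.21 without midnight replicate 2 and -0.020 without noon replicate 3; Arntl2 to 0.025 without midnight replicate 2; and Bhlhe41 and Clock to 0.11 and 0.047 without noon replicate 2. Leaving out 1 library, they ranged from -0.44 to 0.099 (Gm129), -0.21 to 0.36 (Per1), -0.28 to 0.025 (Arntl2), -0.23 to 0.11 (Bhlhe41) and -0.25 to 0.047 (Clock). The cause was not tested. With 3 libraries per time, unknown depth and no statement of separate animals, small differences could not be judged.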
